A study of Rattus norvegicus with 6 samples.

Results

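The cytokine, chemokine and TNF family genes were examined in the vestibular sensory epithelium of rats. Of the 96 that could be tested, 3 were called changed under streptomycin, a share near the 3.24% called among all genes tested. The family genes were taken from the deposited gene table as the protein-coding rows whose symbols have the form of a chemokine or its receptor (Ccl, Cxcl, Cx3cl1, Ccr, Cxcr, Cx3cr1), an interleukin, its receptor or a numbered interleukin-related gene (Il), or a member of the TNF superfamily (Tnf, Tnfsf, Tnfrsf). The rule used names alone and found 158 of 32883 listed genes, among 22250 protein-coding ones. By role these were 33 chemokine ligands, 16 chemokine receptors, 38 interleukin ligands and antagonists, 42 interleukin receptors and binding proteins, 12 TNF ligands and 17 TNF receptors. A symbol does not fix a function, and Il4i1, which is counted among the interleukins, encodes an amino acid oxidase.

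RNA was sequenced from 3 Control and 3 STREP animals, all Long-Evans rats, with 2 males and 1 female in each group. STREP animals received subcutaneous streptomycin, an aminoglycoside antibiotic that damages the hair cells (HCs) of the inner ear, at 500 mg/kg daily for 6 weeks from postnatal day 21, and Control animals received its vehicle, PBS. Each library pooled the utricles and cristae of a single animal, and the labels put all of them in the same batch. The comparison asks which transcripts differ after this exposure. Otof, a synaptic protein of HCs, ran from 22945 to 29590 normalised counts, where a normalised count is the gene's estimated read count divided by a scaling factor for its library, so the labelled tissue was present in every library. The summed level of 4 Schwann cell genes, from 108367 to 290964 normalised counts, and of 13 macrophage genes, from 5374 to 7734, showed that the dissected tissue also held nerve and immune cells. In such bulk tissue, fewer cells of a type and less RNA per cell cannot be told apart. Library totals ran from 48568191 to 59906048 counts in Control and from 29333584 to 33744909 in STREP animals, so depth differed between the groups without overlap.

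Cytokines are secreted or membrane-bound proteins through which cells signal to each other, and most act at very low transcript levels until a tissue is injured or infected. Chemokines direct the migration of leukocytes through G protein-coupled receptors, interleukins act through paired receptor chains that feed the JAK-STAT or NF-kB pathways, and TNF ligands bind receptors that govern inflammation, survival and cell death. Each branch has brakes: decoy receptors such as IL1R2 and soluble binding proteins such as IL18BP capture a ligand without passing on a signal. In the inner ear, resident macrophages and supporting cells are known to respond to HC damage by aminoglycosides, and many of these ligands have been studied there.

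Several well known inflammatory cytokine transcripts were not seen. No count was recorded in any of the 6 animals for 40 members, 21 of them interleukin ligands or antagonists. Among these were Tnf, the founding ligand of the TNF superfamily, Il1a and Il6, which drive acute inflammation, and Il10, which restrains it. Il2, Il4, Il5, Il13, Il17a, Il17f and Il22, products mainly of lymphocytes, and Tnfsf11, the ligand that drives osteoclast formation, also had 0 counts in all animals. A count of 0 allows a level of up to 3 counts, which was between 0.0501 and 0.102 CPM, the count scaled to the library total, across libraries, so low expression was not detectable at this depth. These limits cover counting error alone, as duplicate reads of a molecule could not be told from separate molecules. A 0 can also come from the annotation or the quantification, which was not tested. Map3k7, a kinase gene of the NF-kB pathway outside the family, likewise had 0 counts in all 6 animals.

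Members at 0 in all animals were spread unevenly over the roles. None of the 17 TNF receptors was at 0 in all animals, against 5 of 12 TNF ligands. Of 42 interleukin receptors and binding proteins 4 were at 0, against 21 of 38 interleukin ligands and antagonists. Those 4 include Il36rn, a receptor antagonist that its symbol placed among the receptors. Among chemokines, 6 of 33 ligands and 4 of 16 receptors were at 0. Counts were recorded for 118 members, of which 75 had a mean of at least 10 normalised counts and 42 of at least 100. Members above 3 counts numbered 87, 90 and 87 in the Control animals and 80, 81 and 81 in the STREP animals. After every library had been thinned at random to the smallest total, a step chosen after seeing the data, the numbers were 78, 86 and 80 against 80, 81 and 78, and the groups overlapped.

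**Figure D1:**
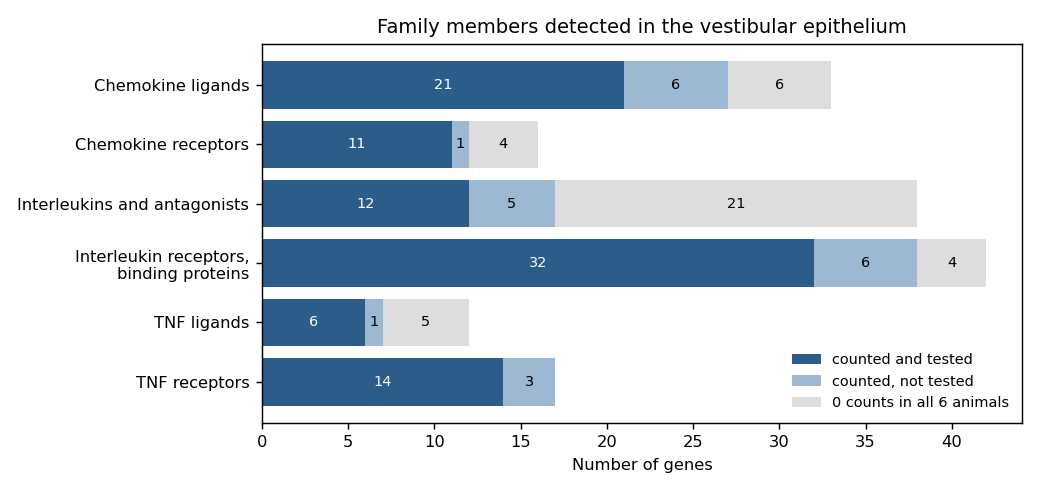
Number of genes of each role (bars, x axis) that had counts and an adjusted p-value, had counts but no adjusted p-value, or had 0 counts in all 6 animals. The 21 interleukin ligands and antagonists at 0 form the largest grey segment, and TNF receptors have none.

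The overall output of the family was close in the 2 groups. Normalised counts summed over all 158 genes were 70427, 71356 and 66044 in Control and 71627, 65862 and 67823 in STREP animals. The means were 69276 ± 2837 and 68438 ± 2931 (SD, n = 3), a ratio of 0.988. This sum is led by receptors, with Tnfrsf21 alone giving 14.4% of it, and says little about the scarce ligands.

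DESeq2 tested 96 members, those that passed its filter on low counts, within a fit of all genes. Calling a gene took a fold change over 1.5 together with an adjusted p under 0.05 (Benjamini-Hochberg, over all genes tested). The called members were 3, which are also the members with an adjusted p under 0.05 whatever the fold (3.72% of all genes): Il10rb was higher and Il18bp and Il1r2 were lower in STREP animals. Of all 16250 genes tested, 3.24% were called, 1.87% higher and 1.37% lower, so the share of the family was near this background. The fitted log2 differences (STREP minus Control) were positive for 50 members and negative for 46, with a median of 0.04 against 0.0069 over all genes tested. In 18 members the 3 STREP values did not overlap the 3 Control values, 7 higher and 11 lower, or 18.8% of those tested, beside 17.8% of all genes (9.12% higher and 8.63% lower). Another 11 members had an unadjusted p under 0.05 without being called, 14 in all with the called genes, where 12.2% of all genes tested passed that threshold. Leaving out an animal raised the count of called members to 6 without Control replicate 1 and to 5 without STREP replicate 2.

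Il10rb (ENSRNOG00000028638) encodes the shared chain of the receptors for IL-10, IL-22 and the lambda interferons. It had 1057, 838 and 1156 normalised counts in Control and 1721, 1846 and 1826 in STREP animals. Each STREP value lay well above the highest Control value. The means were 1017 ± 163 and 1798 ± 67.1 (SD, n = 3), and Il10rb rose 1.77-fold, by 0.82 ± 0.17 on the log2 scale (SE), with a DESeq2 adjusted p of 0.000134. It was also called by edgeR (adjusted p 0.0208). Of its partners and ligands, Il10 and Il22 had 0 counts throughout, and Il22ra1, the partner chain for IL-22, averaged under 1 normalised count. Il10ra, the chain that binds IL-10 itself, was uneven, at 60.1, 0 and 0 in Control and 5.33, 8.64 and 40.4 in STREP animals. DESeq2 gave Il10ra no p because of 1 extreme count.

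Both called genes that fell encode proteins that capture a ligand without passing on its signal. Il18bp (ENSRNOG00000020150), the soluble inhibitor of IL-18, had 979, 813 and 771 normalised counts in Control and 503, 408 and 398 in STREP animals. No STREP animal came near the lowest Control value. The means were 854 ± 110.5 and 436 ± 58.1 (SD, n = 3), and Il18bp fell 1.96-fold, with a log2 difference of -0.97 ± 0.20 (SE) and a DESeq2 adjusted p of 0.000134 (edgeR 0.0221). Il18, the cytokine it binds, was close to the limit of counting, at 6.14, 7.65 and 8.60 in Control and 16.0, 0 and 29.9 in STREP animals. Its receptor chains were equally scarce, Il18r1 at 1.84, 3.4 and 33.5 against 28.0, 4.32 and 4.49, and Il18rap at 0, 50.2 and 18.9 against 26.6, 0 and 0. None of these showed a direction shared by the animals of a group. Of these 4 genes Il18bp alone was called. Il18 also shares bases with Bco2 in the RefSeq annotation.

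Il1r2 (ENSRNOG00000014378), the decoy receptor for IL-1, had 1562, 1512 and 1546 normalised counts in Control and 808, 1144 and 898 in STREP animals. The Control values were nearly equal and every STREP value lay below them. From 1540.4 ± 25.6 to 950.0 ± 174 (SD, n = 3), Il1r2 fell 1.62-fold, with a log2 difference of -0.70 ± 0.18 (SE) and a DESeq2 adjusted p of 0.00461. This call was the least stable of the 3: edgeR with a count filter gave an adjusted p of 0.0522, library totals as scaling factors 0.215, males alone 0.133, and the fit without STREP replicate 1 gave 0.0536. The direction stayed the same in each of them.

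**Figure D2:**
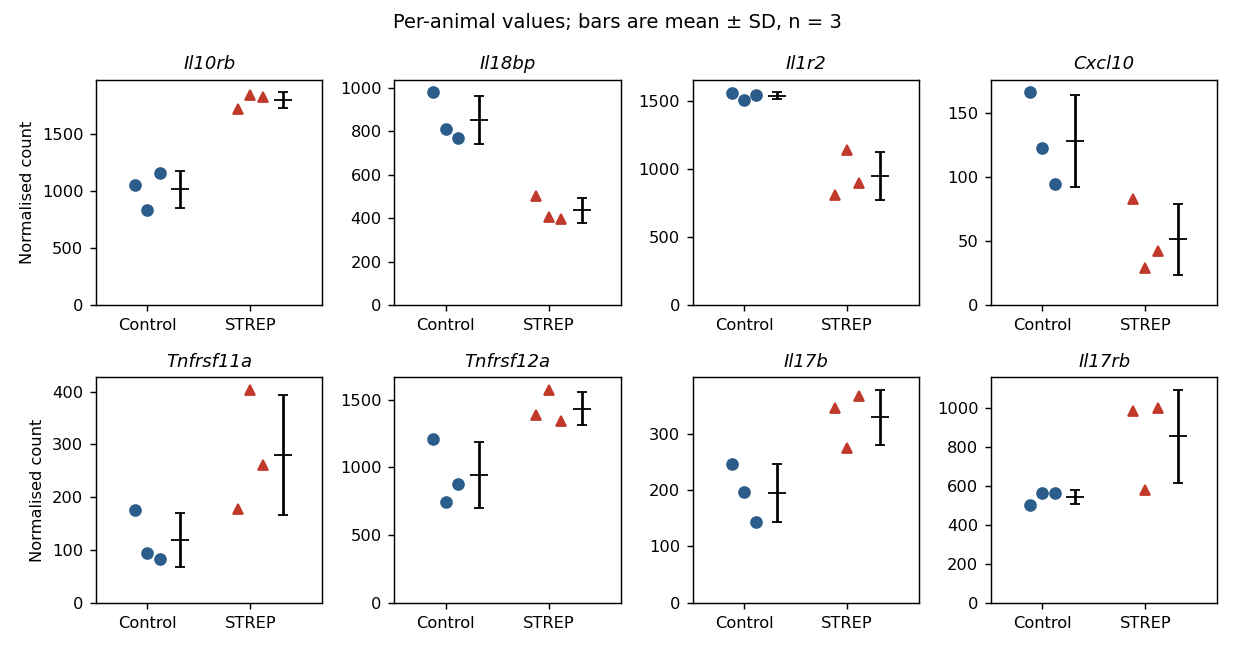
Normalised counts of 8 members in each animal (points, y axis from 0), with the mean and SD of each group (bars, n = 3). Il10rb, Il18bp and Il1r2 were called and their groups are apart, while the other 5 did not pass the adjusted threshold.

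The start regions of the called genes Il10rb and Il18bp, and of Cxcl10, which was not called, are shown because interferon and STAT sites have been described in cytokine receptor and inhibitor genes. Each run holds 250 bases before and 50 after the RefSeq start in the GRCr8 build, with matches to the searched motifs in capitals. The table used here held the regions of 121 of the 158 members, and that of Il1r2 was not analysed here. Il10rb lies at chr11:44132386-44132685 on the plus strand and holds the STAT motif across its start. Il18bp lies at chr1:165786906-165787205 on the minus strand and holds an interferon-stimulated response element (ISRE) after its start. Cxcl10, chosen after its values were seen, lies at chr14:15988816-15989115 on the plus strand and holds an ISRE, an NF-kB and an AP-1 match in that order.
Il10rb: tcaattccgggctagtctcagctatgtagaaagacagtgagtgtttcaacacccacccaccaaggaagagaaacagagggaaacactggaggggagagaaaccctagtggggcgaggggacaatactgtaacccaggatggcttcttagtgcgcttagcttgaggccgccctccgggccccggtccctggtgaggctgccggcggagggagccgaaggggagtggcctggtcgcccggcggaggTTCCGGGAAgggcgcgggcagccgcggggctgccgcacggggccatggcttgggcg
Il18bp: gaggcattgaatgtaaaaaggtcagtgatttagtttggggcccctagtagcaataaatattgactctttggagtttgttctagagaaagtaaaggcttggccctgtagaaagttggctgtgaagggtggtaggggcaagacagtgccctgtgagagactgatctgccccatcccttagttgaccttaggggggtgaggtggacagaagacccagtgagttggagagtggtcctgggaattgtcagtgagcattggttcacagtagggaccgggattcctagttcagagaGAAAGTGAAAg
Cxcl10: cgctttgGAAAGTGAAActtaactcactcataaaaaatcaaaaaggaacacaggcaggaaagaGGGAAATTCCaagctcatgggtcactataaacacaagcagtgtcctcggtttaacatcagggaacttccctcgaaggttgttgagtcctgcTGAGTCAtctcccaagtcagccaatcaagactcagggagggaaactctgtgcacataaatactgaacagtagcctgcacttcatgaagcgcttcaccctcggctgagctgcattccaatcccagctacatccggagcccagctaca

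Motifs were searched on both strands of these 300 bases. Each member was counted by a single promoter, while the share of all promoters took in every entry. Base composition was not matched, so the shares are descriptive. The ISRE motif (GAAA and GAAA with any 2 bases between) was found in 13 of 121 members, 10.7%, and in 3.92% of all 33469 promoters. The NF-kB consensus was found in 18 members, 14.9%, against 4.18% of all promoters, and the AP-1 motif (TGANTCA) in 15 members, 12.4%, against 7.33%. The STAT motif (TTCNNNGAA) was likewise found in 15 members, against 8.87% of all promoters, and the C/EBP-ATF motif (TGATGNAA) in 6 members, 4.96%, against 3.98%. Of the 8 tested members with the ISRE motif, Il18bp was called, 6 had a negative and 2 a positive log2 difference, and their median was -0.73. Of the 9 with the STAT motif, 2 differences were positive, that of Il10rb among them, and 7 negative, with a median of -0.12. Of the 11 with the NF-kB motif, 7 differences were positive and 4 negative, with a median of 0.05. For the AP-1 motif 5 were positive and 6 negative (median -0.10), and for the C/EBP-ATF motif 3 and 1 (median 0.16). Over all genes tested, 8281 differences were positive and 7969 negative. Some members with a motif, such as Il23r with the ISRE motif, rested on few counts. A match of letters is a description of the sequence and says nothing about binding.

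Among the chemokine ligands, 0 of 21 tested were called. Their summed level (SD, n = 3) was 7609 ± 462 normalised counts in Control and 8235 ± 574 in STREP animals. Cxcl14, a chemokine of epithelia, had 2721, 2058 and 2717 in Control and 2419, 2566 and 3563 in STREP animals (log2 difference 0.19 ± 0.19, DESeq2 adjusted p 0.828). Cxcl12, the retention signal for CXCR4-bearing cells, had 2173, 2022 and 1854 against 2319, 2276 and 1929.7 (0.11 ± 0.15). Cxcl16 and Cx3cl1, the transmembrane chemokines that can be shed from the cell surface, differed by 0.05 ± 0.17 and 0.19 ± 0.21 on the log2 scale, and Cxcl16 shares bases with Zmynd15. The groups overlapped for each of these genes. The 95% Wald interval of the Cxcl12 difference was -0.18 to 0.40, which leaves out a 1.5-fold change in either direction.

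Several chemokines that recruit inflammatory cells were at or near 0, and others were counted in every animal. Ccl2, the main attractant of monocytes, had at most 2.99 normalised counts in any animal and was not tested. Cxcl1, an attractant of neutrophils, had 4.91, 9.35 and 2.58 in Control and 3.99, 13.0 and 23.9 in STREP animals (DESeq2 adjusted p 0.801). Cxcl6, another neutrophil attractant, ran from 83.3 to 200.5 over the 6 animals and Ccl24, an eosinophil attractant, from 69.2 to 193, each with overlapping groups. Cxcl2, Ccl17 and Ccl26 were at 0 in all animals, as were the homing chemokines Ccl21 and Ccl25. Of 6 neutrophil genes, Mpo and Elane had 0 counts in every animal. S100a9 and Csf3r were counted in every animal, at up to 35.6 and 33.3 normalised counts, and S100a8 and Camp in some. The 6 genes summed to between 22.4 and 78.2 normalised counts.

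The CXCR3 axis was low in every animal. Its ligand Cxcl10, which interferons induce, had 166, 122 and 94.6 normalised counts in Control and 82.5, 29.2 and 41.9 in STREP animals. All STREP values lay below the Control values. The means were 128 ± 35.8 and 51.2 ± 27.9 (SD, n = 3) and the log2 difference -1.32 ± 0.50 (SE), with an unadjusted p of 0.00793 and a DESeq2 adjusted p of 0.143, so Cxcl10 was not called. Of 15 alternative settings, Cxcl10 was called in 1, without STREP replicate 1 (-1.86, DESeq2 adjusted p 0.0139). The other ligands of CXCR3 also had negative differences and were not called. Cxcl9 had 107, 102 and 16.3 against 98.5, 77.7 and 31.4, with overlapping groups (log2 difference -0.12, DESeq2 adjusted p 0.987). With sex as a covariate its log2 difference turned positive, at 0.093 (DESeq2 adjusted p 0.978). Cxcl11 had 31.3, 26.4 and 21.5 against 18.6, 18.4 and 20.9, with no overlap (-0.45 ± 0.70, DESeq2 adjusted p 0.916). The receptor Cxcr3 had 5.52, 12.8 and 10.3 in Control and 0 in all STREP animals, and with STREP set at the floor of 3 counts per library it was at least 2.44-fold lower (DESeq2 adjusted p 0.176). The STREP libraries were the shallower ones, and the part of depth in these zeros was not tested. Cxcl10 and Cxcl11 both share bases with Art3 in the RefSeq annotation. The strand setting of the counting was not given in the sources used here, and the libraries did not mark strand. Reads from the shared bases therefore cannot be told apart by gene. Art3 differed by -0.32 on the log2 scale (DESeq2 adjusted p 0.641).

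Of the other ligands whose groups did not overlap, Ccl6, a macrophage chemokine of rodents, had 89.6, 195 and 167 in Control and 268, 259 and 242 in STREP animals (0.77 ± 0.34, DESeq2 adjusted p 0.275). Ccl19, which guides CCR7-bearing lymphocytes and dendritic cells, had 190.2, 249.9 and 211 against 130.5, 165 and 126 (-0.62 ± 0.30, adjusted p 0.347). Ccl11, an attractant of eosinophils, was near the floor, at 22.1, 8.50 and 6.88 against 2.66, 6.48 and 2.99. None of these passed the test.

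Chemokine receptors, mostly carried by leukocytes, gave 0 calls among 11 tested. Their summed level was 479, 439 and 354 normalised counts in Control and 314, 351 and 295 in STREP animals, 424 ± 63.7 against 320 ± 28.5 (SD, n = 3), a ratio of 0.754. The highest STREP sum lay just under the lowest Control sum. The median log2 difference of the tested receptors was -0.46, and 8 of the 11 were negative. Cx3cr1, the fractalkine receptor of resident macrophages, had 128, 57.8 and 63.6 in Control and 42.6, 73.4 and 29.9 in STREP animals (-0.77 ± 0.56, DESeq2 adjusted p 0.680), and its groups overlapped, as did those of Ccr1. Ccr10, with 52.2, 44.2 and 49.9 against 18.6, 38.9 and 16.5, and Ccr7, with 6.75, 18.7 and 36.1 against 0, 6.48 and 0, did not overlap (DESeq2 adjusted p 0.593 and 0.330). Ccr10 shares bases with Cntnap1 in the RefSeq annotation.

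Leukocyte markers are given beside these receptors, and their part in the differences was not tested. Of 14 macrophage genes, 13 were listed and tested, and their summed level was 5374 to 6953 normalised counts in Control and 6491 to 7734 in STREP animals. Cd163, a scavenger receptor of resident macrophages, rose from 106 ± 45.0 to 329 ± 106 (log2 difference 1.64, DESeq2 adjusted p 0.00137), and Mrc1, the mannose receptor, from 423 ± 42.3 to 717 ± 113 (0.76, adjusted p 0.00997, SD, n = 3). The edgeR adjusted p-values of the pair were 0.0638 and 0.0772, so edgeR called neither. The other 11 were not called, and Adgre1 had a negative value (-0.70, adjusted p 0.162). Lymphocyte genes, 11 listed and 6 tested with 0 called, summed to 481 to 697 in Control and 595 to 863 in STREP animals, and Cd3e was at 4.30, 5.10 and 11.2 in Control and 0 in all STREP animals.

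Interleukin ligands and antagonists had 12 tested members and 0 calls. Il16, a chemoattractant for CD4-bearing cells, had 1574, 1671 and 1668 normalised counts in Control and 2209, 1343 and 1025 in STREP animals, and the STREP values lay on both sides of the Control range. Il34, the second ligand of the macrophage receptor CSF1R, had 617, 768 and 762 against 612, 577 and 629.8 (-0.24 ± 0.18, DESeq2 adjusted p 0.713). Il33, an alarmin released from damaged cells, had 142, 195 and 168 against 150.4, 167 and 124 (-0.19 ± 0.31). Il1b was read in only 3 animals, at 31.9, 47.6 and 0 in Control and 20, 0 and 0 in STREP animals. These ligands overlapped between the groups.

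The IL-1 system was otherwise present as receptors. Il1r1, the signalling receptor, had 226, 239.7 and 281 in Control and 177, 322 and 269 in STREP animals (log2 difference 0.04 ± 0.30). Its accessory chain Il1rap had 3126, 3291 and 3023 against 4480.1, 3685 and 3055 (0.25 ± 0.17, DESeq2 adjusted p 0.627). Il1rn, the receptor antagonist, and Il1rl1, the receptor for IL-33, each averaged under 1 normalised count. Il1r2 was the member of this system that was called, while the interval of the Il1r1 difference, -0.54 to 0.62, reached past a 1.5-fold change.

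In the IL-17 system, a ligand and its receptor had higher values together without passing the test. Il17b had 245, 196 and 143 normalised counts in Control and 345, 274 and 366 in STREP animals, 195 ± 51.4 against 329 ± 48.2 (SD, n = 3), with a log2 difference of 0.75 ± 0.29 (SE) and a DESeq2 adjusted p of 0.168. Il17rb, the receptor chain that binds IL-17B and IL-25, had 501, 561 and 565 against 981, 579.8 and 998 (0.65 ± 0.24, adjusted p 0.127). Neither gene's groups overlapped, although STREP replicate 2 of Il17rb lay just above the Control range. Without that animal Il17rb was called (0.87, DESeq2 adjusted p 0.00036), its only call in 15 alternative settings. Il17rb shares bases with Actr8 and Chdh in the RefSeq annotation, so reads from the shared bases cannot be told apart by gene. Actr8 and Chdh had higher mean counts (2910 and 1606) and differed by -0.025 and 0.27 on the log2 scale. The common chain Il17ra, at 1299, 1215 and 1063 against 1322, 1144 and 1212, differed by 0.04 ± 0.16, with an interval of -0.28 to 0.36. Il17rc and Il17re, the chains for IL-17A and IL-17C, differed by 0.04 ± 0.17 and -0.11 ± 0.15, and Il25 had at most 41.7 normalised counts in any animal.

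Receptors of the IL-6 family were counted in every animal, although Il6 itself had 0 counts, and none was called. Il6st, the shared signalling chain gp130, had 5296, 5390.4 and 3968 in Control and 5322, 4748 and 5351 in STREP animals (0.07 ± 0.16). Il11ra1 had 6443, 6587 and 6328 against 5618, 5472 and 6027, with no overlap and a small log2 difference of -0.18 ± 0.12 (DESeq2 adjusted p 0.611). Its interval, -0.41 to 0.05, lay within a 1.5-fold change, and the gene shares bases with Ccl27. Il6r, the chain that binds IL-6, had 350.4, 166 and 173 against 502, 222 and 259 (0.51 ± 0.40, adjusted p 0.719). Il9r, at 2.45, 0.85 and 0 against 6.66, 19.4 and 23.9, and Il23r, at 5.52, 25.5 and 1.72 against 0 in all STREP animals, did not overlap but rested on few counts (DESeq2 adjusted p 0.132 and 0.176).

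**Figure D3:**
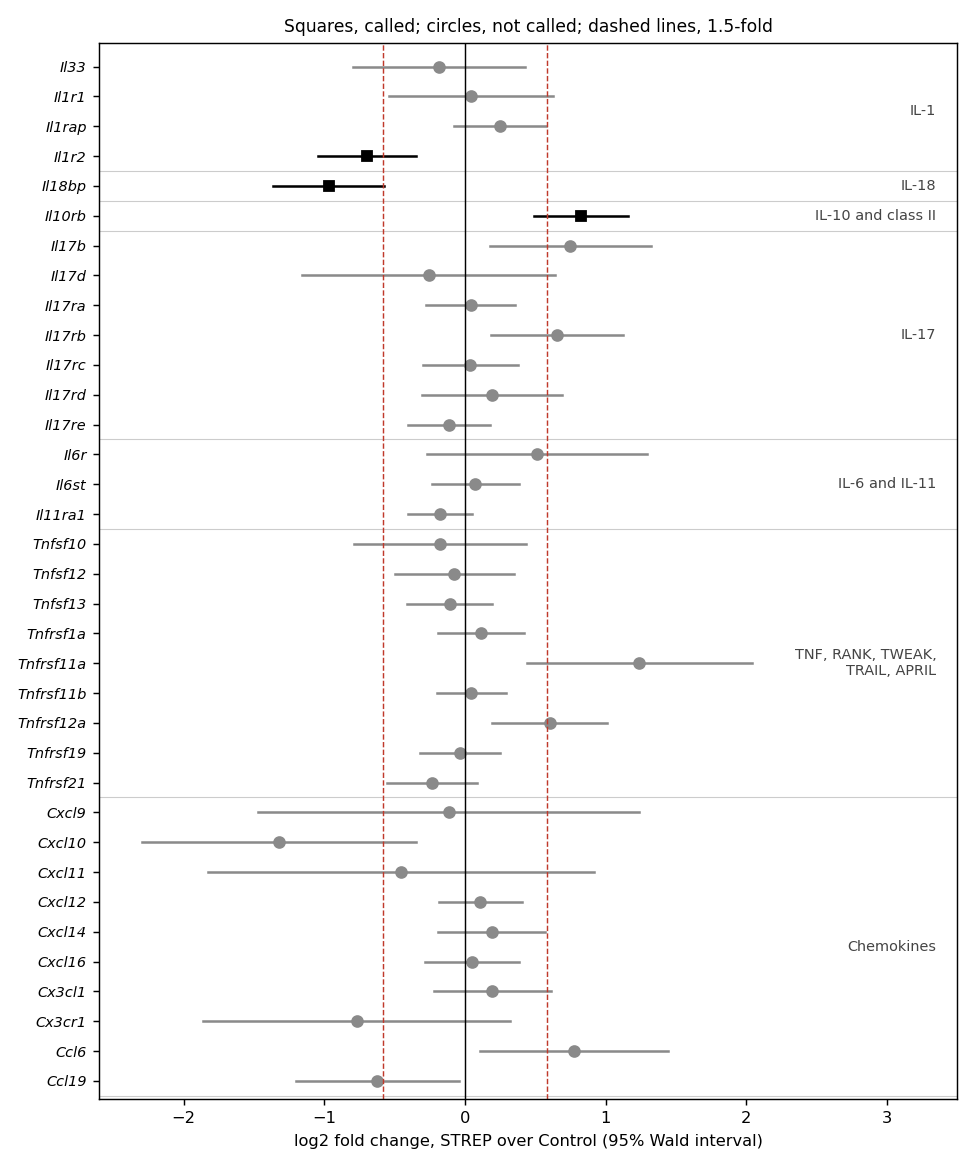
Log2 fold change (STREP over Control, x axis) with its 95% Wald interval for members grouped by receptor system, squares for called genes and circles for the rest. Il1r2, Il18bp and Il10rb are the squares. Between the dashed 1.5-fold lines lie the intervals of Il1rap, Il17ra, Il17rc, Il17re, Il6st, Il11ra1, Tnfsf12, Tnfsf13, Tnfrsf1a, Tnfrsf11b, Tnfrsf19, Tnfrsf21, Cxcl12, Cxcl14 and Cxcl16.

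The TNF ligands gave 0 calls among 6 tested, and none had separate groups. Tnfsf13 (APRIL), a survival factor for B cells, made up 85.1% of their summed level. It had 4579, 5912 and 4933 normalised counts in Control and 5023, 4214 and 5058 in STREP animals (-0.11 ± 0.15, DESeq2 adjusted p 0.903). Tnfsf10 (TRAIL), which can trigger apoptosis, had 425, 380.0 and 534 against 557, 239.7 and 390.4 (-0.18 ± 0.31), and Tnfsf12 (TWEAK) 358, 386 and 387 against 309, 391 and 371 (-0.08 ± 0.22). Tnfsf12 and Tnfsf13 both share bases with Eif4a1l in the RefSeq annotation. Tnfsf13b (BAFF) and Tnfsf15 had at most 60.4 and 37.8 normalised counts in any animal, and their groups overlapped.

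TNF receptors had the widest expression, with 14 of 17 tested and 0 called. The median log2 difference was 0.0039. Tnfrsf21 (DR6), a death receptor of neurons and T cells, had 11157, 11679 and 9364 normalised counts in Control and 10912, 8019.8 and 8410.0 in STREP animals (-0.24 ± 0.16, DESeq2 adjusted p 0.651). Tnfrsf19 (TROY), found on progenitor and glial cells, had 4435, 4831 and 4676 against 4565, 3904 and 5112 (-0.04 ± 0.14). The main TNF receptor Tnfrsf1a had 1698, 1450.2 and 1400.1 against 1515, 1655 and 1756, and its interval of -0.19 to 0.42 left out a 1.5-fold change. These groups overlapped.

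The RANK system held a pair of receptors with different values. Tnfrsf11b (osteoprotegerin), the soluble decoy that protects the otic capsule from bone resorption, had 6349, 7054 and 6466 normalised counts in Control and 6355, 7296 and 6857 in STREP animals (0.05 ± 0.13, interval -0.20 to 0.29, DESeq2 adjusted p 0.969). Tnfrsf11a (RANK), the signalling receptor, had 177, 95.2 and 83.4 against 177, 403 and 260.3, and replicate 1 of the 2 groups all but touched. Its log2 difference was 1.24 ± 0.41 with a DESeq2 adjusted p of 0.0616, so RANK was not called. Of 15 alternative settings, it was called in 2, without Control replicate 1 (1.65, DESeq2 adjusted p 0.00643) and without STREP replicate 1 (1.48, adjusted p 0.0304). The ligand Tnfsf11 had 0 counts in all animals.

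Tnfrsf12a (Fn14), the receptor for TWEAK that is induced in injured tissue, had 1213, 741 and 879 normalised counts in Control and 1389, 1569.8 and 1342 in STREP animals. The STREP values lay above the Control range, by a small margin over Control replicate 1. The means were 944 ± 242 and 1433 ± 120.4 (SD, n = 3), and the log2 difference was 0.60 ± 0.21 (SE). The DESeq2 adjusted p was 0.0899. It became 0.00149 without Control replicate 1 (0.82), the only call of Tnfrsf12a in 15 alternative settings. Tnfrsf26 had 2.45, 79.1 and 69.7 in Control and 0, 0 and 23.9 in STREP animals. Among the settings run, it was called only with sex as a covariate, in males alone and without STREP replicate 3 (DESeq2 adjusted p 0.0209, 0.026 and 0.00365). Tnfrsf26 had no adjusted p in the test between the sexes that follows, so that test did not cover it. A test of whether the change differed between the sexes, which rests on 1 female a group, reached an adjusted p under 0.05 for 0 of 51 members tested and an unadjusted one for 0.

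**Figure D4:**
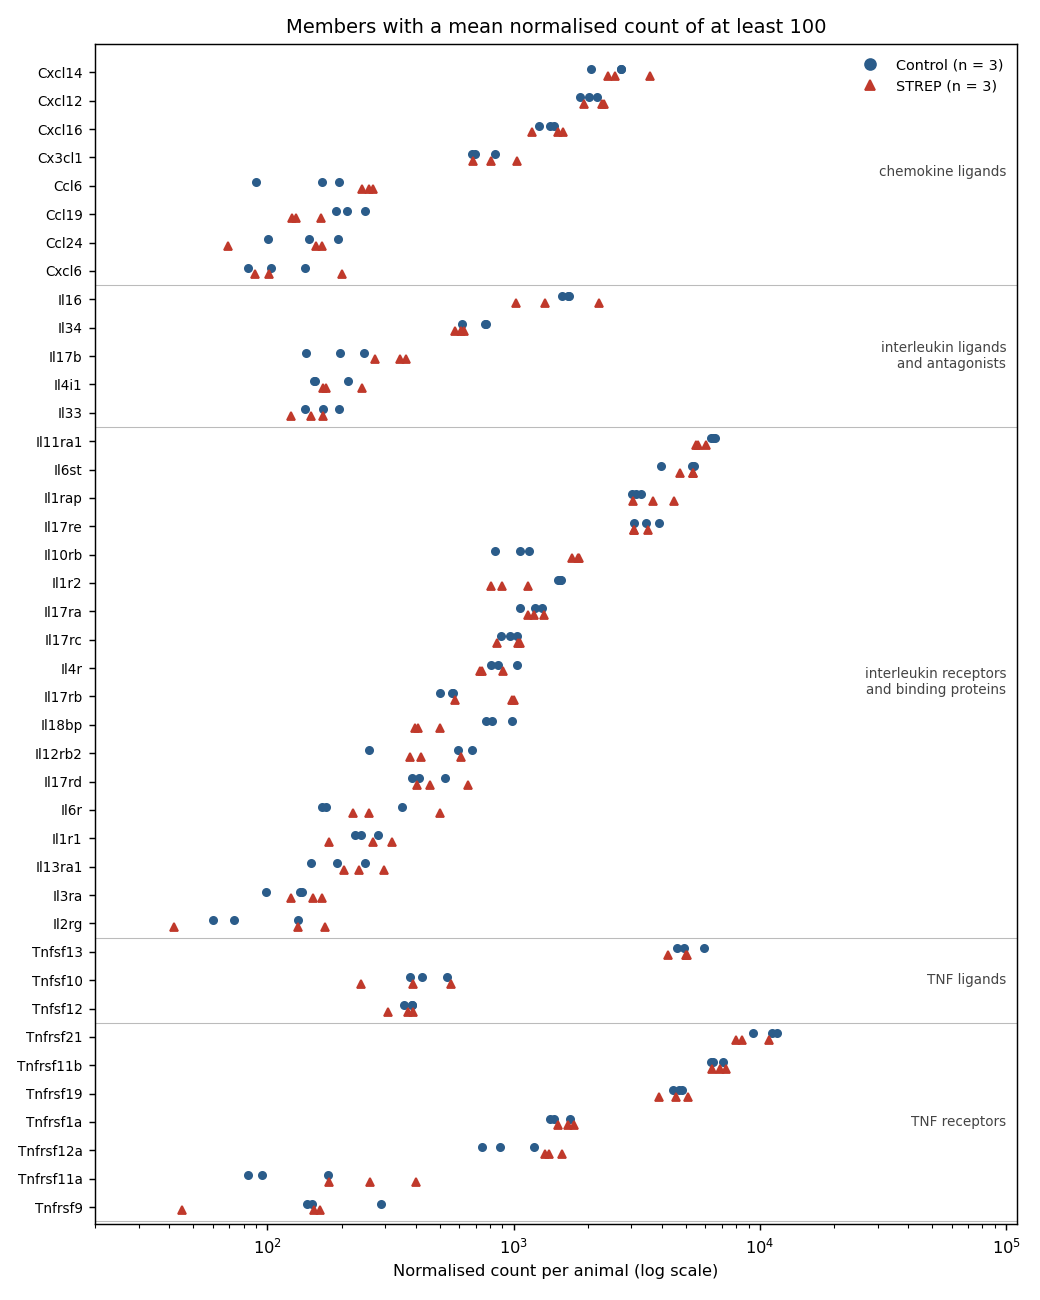
Normalised count (x axis, log scale) of each animal for 41 of the members with a mean of at least 100, circles for Control and triangles for STREP animals (n = 3 each). Most pairs of groups overlap, and Il10rb, Il1r2 and Il18bp stand apart.

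The other genes of the pathway came from a list of 121 further cytokines, receptors and signalling proteins, of which 118 were found and 103 tested. DESeq2 called 3 of them, Pias4 and Traf4 higher and Relt lower, and their median log2 difference was 0.07. Among other cytokines and haematopoietic factors 0 of 12 tested were called, among other receptors 1 of 25, among JAK, STAT and SOCS genes 1 of 24, and among NF-kB genes and their adaptors 1 of 42. In 20 of the 103 the groups did not overlap, 15 higher and 5 lower, or 19.4%, beside 17.8% of all genes tested (9.12% higher and 8.63% lower), and the called share of all genes was 3.24%.

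Relt, a receptor of the TNF family whose symbol lies outside the naming rule, had 1782, 2157 and 1741 normalised counts in Control and 768, 1018 and 1098 in STREP animals. Every STREP value lay far below the Control range, and Relt fell from 1893 ± 229 to 961 ± 172 (SD, n = 3), with a log2 difference of -0.98 ± 0.19 (SE) and a DESeq2 adjusted p of 2.49e-05 (edgeR 0.0140). Pias4, an inhibitor of STAT signalling, had 738, 462 and 652 against 956, 1089 and 1269 (0.84 ± 0.22, DESeq2 adjusted p 0.00721, edgeR 0.0680). Traf4, an adaptor of the TRAF family, had 265, 147 and 215 against 483, 375 and 350.0 (0.94 ± 0.29, DESeq2 adjusted p 0.0368, edgeR 0.151) and was called in 4 of 15 alternative settings, against 9 for Pias4 and 15 for Relt. Csf1, a growth factor of macrophages, had 265, 281 and 267 against 405, 442 and 399, with no overlap and a DESeq2 adjusted p of 0.0746 (0.62 ± 0.21). Its receptor Csf1r differed by 0.06 on the log2 scale.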

How the data were processed

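Per the labels, the authors aligned reads with STAR 2.5.3a and quantified genes with RSEM 1.3.0 on rat build Rnor6.0, and they deposited expected counts, 1 column per animal, unscaled. 0 deposited values were not whole. Libraries were made from amplified cDNA that does not mark strand. In R 4.3.3, DESeq2 1.42.0 was fitted to all 32883 genes and 6 animals, with the tool and the thresholds on adjusted p and fold of the study's methods. Group as the single factor, median-of-ratios size factors, Wald tests and independent filtering at 0.05 were set here. Intervals are 95% Wald intervals. The family, gene lists, roles and motifs were chosen with earlier results of these data known. Named genes were members that were called or had an adjusted p under 0.05, the 5 highest mean levels per role, 14 fixed genes and called genes of the signalling list. Another 26 genes were chosen after their values were seen, and 1 member is counted in the totals but not reported here. Other settings tried were the quasi-likelihood test of edgeR 4.0.16 (filtered on counts or unfiltered), scaling by TMM or library totals, a minimum of 10 counts in 3 samples, dropping the independent filtering, a sex covariate, males alone and omitting each animal in turn. Thinning to the smallest total was chosen after seeing the data. Overlaps of genes and 300-base promoters came from RefSeq (GRCr8), and no coordinate was converted. Procedures were tested on simulated data, where DESeq2 found more of the changed genes than edgeR but a larger share of its calls was false. Levels are not per length, so genes are not ranked against each other. The authors' means were not used.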

Additional observations from a re-analysis of the deposited data

How the results depend on the processing

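Il10rb, Il18bp and Relt were called under all 15 alternatives, with log2 differences of 0.70 to 0.92, -1.08 to -0.86 and the same sign throughout. Of the 3 members called, 1 lower rather than 2 was left with edgeR with a count filter and with library totals as scaling. The signalling list, with 3 calls (2 higher), had 1 call and 0 higher with edgeR with or without a filter, library totals or males alone, and 1 higher after thinning. Over the fits that left out an animal, called members numbered 3 to 6 (1 to 4 higher, 3 to 6 with an adjusted p under 0.05) and list calls 1 to 4 (0 to 2 higher, 1 to 2 lower). All genes called numbered 264 with edgeR and a filter, 295 without, and 309 with library totals, against 527. Of 538 comparisons of single named genes with another setting, 516 kept direction and side of the threshold and 7 turned direction: in males alone Cxcl16 (-0.051), Cxcr5 (-0.28), Il16 (0.13), Il6st (-0.088), Il17re (0.0082) and Il17ra (-0.030), and with sex as a covariate Cxcl9 (0.093). Of 370 with an animal left out, 322 kept both and 33 turned direction. The genes concerned, none called in the fit reported, ranged over -0.0024 to 0.29 (Cxcl14), -0.035 to 0.17 (Cxcl16), -0.20 to 0.47 (Cxcl6), -0.38 to 0.14 (Ccl24), -0.11 to 0.96 (Cxcr5), -0.47 to 0.12 (Il16), -0.039 to 0.32 (Il4i1), -0.056 to 0.15 (Il6st), -0.19 to 0.0010 (Tnfsf13), -0.51 to 0.084 (Tnfsf10), -0.15 to 0.017 (Tnfsf12), -0.0060 to 0.097 (Tnfrsf11b), -0.13 to 0.056 (Tnfrsf19), -0.59 to 0.23 (Cxcl9), -1.52 to 6.84 (Il10ra), -0.036 to 0.10 (Il17ra), -0.022 to 0.13 (Il17rc), -0.040 to 0.33 (Il17rd), -0.16 to 0.25 (Il1r1), -0.76 to 0.37 (Tnfrsf1b) and -1.02 to 0.62 (Cxcr4). The cause was not tested. Depth, lower in every STREP library, limits members near the floor of 3 counts.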
